A study of Mus musculus with 4 samples.

Results

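The glucocorticoid receptor and the mineralocorticoid receptor are the 2 corticosteroid receptors of the cell, and the HSP90 chaperone machinery holds them in the shape that binds hormone. The set described here is 10 genes, each matched by symbol to the gene table of the series, which lists 22667 genes: Nr3c1 (glucocorticoid receptor), Nr3c2 (mineralocorticoid receptor), Hsp90aa1 and Hsp90ab1 (the cytosolic HSP90 proteins), Hspa8 (the constitutive HSP70), Stip1 (HOP, which joins HSP70 to HSP90), Ptges3 (p23), Fkbp4 (FKBP52), Bag1 (an HSP70 cofactor) and Hsd11b1 (an enzyme that regenerates active glucocorticoid). All 10 have a row, and 8 reached 75 reads when the libraries were added up, a minimum passed by 12497 genes. Nr3c2 and Hsd11b1 did not pass and are described by their reads alone.

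As background, a newly made receptor is first bound by HSP70, then passed by HOP to an HSP90 dimer, and p23 and an FKBP immunophilin close the complex that can bind steroid. FKBP52, the product of Fkbp4, couples the receptor to transport toward the nucleus, whereas the related FKBP51, the product of Fkbp5, lowers hormone affinity and is itself a classic glucocorticoid target gene. BAG1 binds HSP70 and can also bind the receptor. Dexamethasone (Dex) is a synthetic glucocorticoid.

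The cells were Neuro-2a (N2a), a mouse neuroblastoma line grown in medium with serum. They received a pool of non-targeting control siRNAs (siControl) or a single siRNA against Arglu1 (siArglu1) for 48 h. Ethanol vehicle (Veh) or 100 nM Dex followed for 4 h. Each siRNA condition was paired with each treatment to give 4 groups (siControl Veh and Dex, siArglu1 Veh and Dex). RNA of 3 cultures was pooled into 1 library per group, so no pair of groups has replicates. Ratios between libraries therefore carry no test and no error between cultures, and the intervals given are exact 95% intervals for the counting of reads only.

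The libraries held 66074574 to 86541444 reads on genes. Arglu1 itself had 10165 reads and 11825 with siControl (Veh, then Dex) and 2637 and 3254 with siArglu1, and its level after knockdown was 26.4% of control in Veh and 22.5% in Dex. Of the 14 N2a markers, 13 passed the read minimum, and by the size rule described further on 4 of these were higher and 2 lower in both knockdown pairs. Of all 12497 genes tested, 15.8% passed this rule in Veh and 12.1% in Dex, in either direction. The share of all genes past it in both pairs was not counted. The summed level of the 14 was 3232 and 3344 CPM (reads scaled to library size by TMM) in the siControl libraries and 4128 and 4072 in the siArglu1 libraries. The 8 smooth muscle markers summed to 18.6 and 18.5 CPM in siControl and to 276 and 248 CPM in siArglu1, and 5 of the 7 that passed the minimum were higher by more than the size rule below in both knockdown pairs; their part in the results for the chaperones was not tested. The 5 fibroblast markers summed to 4.00 to 5.52 CPM, the 4 glia markers to 3.77 to 4.40 CPM and the 2 leukocyte markers to 0.397 to 0.575 CPM; Lum had 0 or 1 read, Ptprc 0 or 1 and Sox10 1 or 2 in each library.

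Sequence decides how surely a read can be given to one of these genes, since several of them have close copies. Every stretch of 50 bases of the longest coding transcript of each gene (GENCODE M21, which uses build GRCm38) was looked up, on both strands, in the transcripts of all other genes. For Fkbp4, Bag1 and Hsd11b1 0.0% of the stretches occurred elsewhere, for Nr3c1 0.0939%, for Nr3c2 2.54%, for Hsp90ab1 4.49% and for Stip1 5.59%. The share was 22.2% for Ptges3, 58.5% for Hsp90aa1 and 74.8% for Hspa8, mostly in processed pseudogenes such as Gm12346 for Hsp90aa1 and Gm15459 for Hspa8. None of the other genes that share such stretches with these 3 has a row in the gene table, so reads from them could not be seen apart, and the values of Hspa8, Hsp90aa1 and Ptges3 are uncertain to that extent.

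The 2 HSP90 genes themselves share no stretch of 50 bases. Their longest identical run is 33 bases of coding sequence in exon 2 of both, at chr12:110695597-110695629 in Hsp90aa1 and chr17:45571843-45571875 in Hsp90ab1 (GRCm38, minus strand), printed 5′ to 3′ because it is the closest that the paralogs come to being the same read.
Hsp90aa1 and Hsp90ab1, shared run: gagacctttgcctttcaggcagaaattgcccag

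A promoter window (250 bases before to 50 after the RefSeq start, build GRCm38.p6) was matched by symbol for 6 of the 10 genes: Nr3c2, Fkbp4, Ptges3, Stip1, Bag1 and Hsd11b1. The Fkbp4 promoter at chr6:128438607-128438906 and the Stip1 promoter at chr19:7039977-7040276, both on the minus strand, are shown because Fkbp4 differed most between knockdown and control and Stip1, of nearly the same length and the same pathway, differed little. Capitals mark GAANNTTC, the core of a heat shock element, and CCAAT, searched on both strands.
Fkbp4: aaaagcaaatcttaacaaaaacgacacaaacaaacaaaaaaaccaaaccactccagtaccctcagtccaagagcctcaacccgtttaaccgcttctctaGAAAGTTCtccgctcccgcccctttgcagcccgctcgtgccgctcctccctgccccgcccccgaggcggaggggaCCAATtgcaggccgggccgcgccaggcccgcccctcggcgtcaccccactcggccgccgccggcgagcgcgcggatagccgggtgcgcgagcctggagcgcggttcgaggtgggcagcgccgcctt
Stip1: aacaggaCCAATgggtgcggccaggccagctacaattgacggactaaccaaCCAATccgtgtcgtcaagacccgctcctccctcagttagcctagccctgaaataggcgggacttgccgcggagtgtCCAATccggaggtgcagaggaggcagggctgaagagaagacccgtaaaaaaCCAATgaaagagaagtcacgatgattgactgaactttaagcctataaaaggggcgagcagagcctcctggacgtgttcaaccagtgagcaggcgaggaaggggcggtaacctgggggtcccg

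The Fkbp4 promoter held 1 GAANNTTC, 151 bases before the start, and 1 CCAAT, and the Stip1 promoter held no GAANNTTC and 4 CCAAT. GAANNTTC was present in 7.86% of 32851 promoters of this length, CCAAT in 37.4%, and 4 or more CCAAT in 1.06%. Nr3c2 also held 1 GAANNTTC. The complementary arrangement TTCNNGAA (8.52% of promoters) and the core spacing of a glucocorticoid response element, ACANNNTGT (6.85% of promoters), were found in none of the 6. These are matches of letters in a short window and say nothing of binding.

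Levels were compared between genes as cRPKM, in which reads are divided by mappable length and library size. For Hsp90aa1, Hspa8 and Ptges3 that length was 3232, 2345 and 1951 nt. These equal the numbers of all 50-base stretches in their transcripts, so stretches shared with other genes were not discounted. The order in siControl Veh was Hsp90ab1, Hspa8, Hsp90aa1, Fkbp4, Ptges3, Stip1, Bag1 and Nr3c1, and the chaperones stood far above the receptor. The 10 genes together took 1.37% to 1.51% of all reads on genes.

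**Figure D1:**
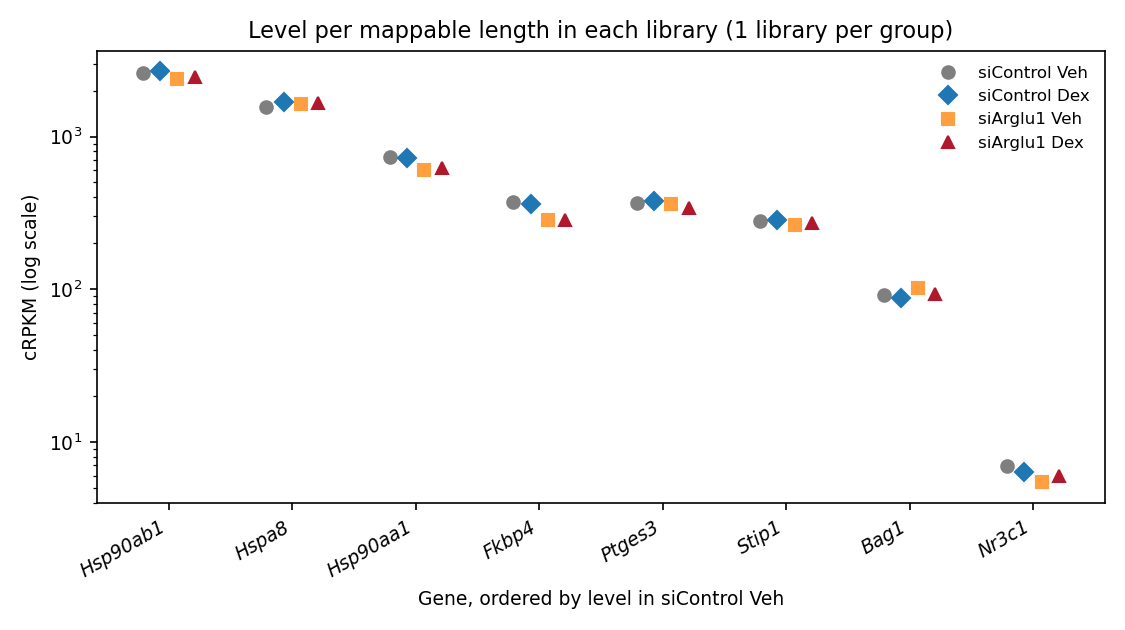
Level of the 8 genes that passed the read minimum, as cRPKM on a log axis, with 1 point per library. Hsp90ab1 lay at 2388 to 2674 and Nr3c1 at 5.42 to 6.90, and the points of each gene lie close together beside the gaps between most genes.

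The glucocorticoid receptor gene Nr3c1 was the only receptor of the pair with more than a few reads. It had 2904 reads (Veh) and 2890 (Dex) under siControl and 2297 (Veh) and 3285 (Dex) under siArglu1. On the cRPKM scale its level was 6.90 and 6.37 with siControl (Veh, then Dex) and 5.42 and 5.96 with siArglu1. Both siArglu1 libraries lay below both siControl libraries, and the whole range placed the gene between the 62.7th and 64.6th percentile of all genes with a cRPKM. That ranking includes genes with a cRPKM of 0 and is not limited to the 12497 genes past the read minimum.

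The mineralocorticoid receptor gene Nr3c2 had 1 and 4 reads under siControl (Veh and Dex) and 8 and 3 under siArglu1. Hsd11b1 had 0 reads in 3 libraries and 1 read in siArglu1 Dex. A count of 0 allows up to 3 reads, or 0.0451 CPM in siControl Veh, so Hsd11b1 was not detectable above that limit at this depth. The 1 to 8 reads of Nr3c2 were too few for a ratio between libraries to be read. Hsd11b2, which inactivates glucocorticoid and was not one of the 10, had 34 and 39 reads under siControl and 32 and 76 under siArglu1.

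Hsp90ab1, the constitutive HSP90, was the most abundant of the set. Its cRPKM was 2625 (Veh) and 2674 (Dex) under siControl and 2388 (Veh) and 2471 (Dex) under siArglu1. Its inducible partner Hsp90aa1 had a cRPKM of 733 and 721 with siControl (Veh, then Dex) and 607 and 625 with siArglu1. For both genes the siArglu1 libraries were below the siControl libraries. The ratio of Hsp90ab1 to Hsp90aa1 within a library, which no scaling of libraries can move, was 3.58 (Veh) and 3.71 (Dex) under siControl and 3.94 (Veh) and 3.95 (Dex) under siArglu1. Between knockdown and control the ratio differed by a log2 value of 0.14 (95% counting interval 0.12 to 0.15) in Veh and 0.09 (0.08 to 0.10) in Dex, and by 0.03 in Veh and 0.04 in Dex once a trend of all ratios on transcript length was removed.

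Hspa8, which carries newly made receptor to the machinery, had a cRPKM of 1566 and 1672 with siControl (Veh, then Dex) and 1639 and 1650 with siArglu1. The siArglu1 libraries lay between the siControl ones. Its cofactor gene Bag1 had a cRPKM of 91.6 (Veh) and 88.1 (Dex) under siControl and 102 (Veh) and 92.3 (Dex) under siArglu1, so that both siArglu1 libraries were above both siControl libraries.

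Stip1, which encodes the HSP70 to HSP90 adaptor, had a cRPKM of 280 and 283 with siControl (Veh, then Dex) and 263 and 270.1 with siArglu1. Ptges3, which encodes p23, had 367 (Veh) and 376 (Dex) under siControl and 361 (Veh) and 339 (Dex) under siArglu1. Fkbp4 had 371 and 363 with siControl (Veh, then Dex) and 285 and 282 with siArglu1. Fkbp4 therefore stood level with Ptges3 in the siControl libraries and close to Stip1 in the siArglu1 libraries. Within every library Stip1 was the lowest of these 3, and Fkbp4 was above Ptges3 in siControl Veh only. Taken over the 4 libraries, the range of Fkbp4 overlapped both of theirs. The ranges of the other neighbours in the order did not overlap.

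The first question was what loss of ARGLU1 did to the receptor machinery without hormone. The call was a size rule and not a test: the log2 ratio of TMM-scaled reads had to reach 0.81, up or down. Between siArglu1 Veh and siControl Veh, 0 of the 8 genes passed it, where 15.8% of all 12497 genes did. The 8 log2 ratios ran from -0.35 for Fkbp4 to 0.18 for Bag1, with a median of -0.08 beside 0.00 over all genes tested, and 5 were below 0 and 3 above.

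Fkbp4 was lower by a log2 ratio of -0.35 (95% counting interval -0.36 to -0.33), which is 78.7% of control, from 53135 control reads and 41179 knockdown reads. Nr3c1 followed at -0.32 (-0.40 to -0.24), 80.3% of control. Hsp90aa1 was at -0.24 (-0.25 to -0.23), or 84.7%. Hsp90ab1 was at -0.10 and Stip1 at -0.06. Ptges3 was at 0.01 with an interval that spans 0, Hspa8 at 0.10 and Bag1 at 0.18 (0.14 to 0.23). By size alone none of these is large for this knockdown: 51.8% of all genes tested differed by more than Fkbp4 did. This share, like those given below for differences between Dex ratios, was not matched for read depth. Genes with few reads have wider counting error.

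With Dex present in both libraries, between siArglu1 Dex and siControl Dex, 0 of the 8 genes passed the size rule and 12.1% of all genes did. The log2 ratios ran from -0.37 for Fkbp4 to 0.06 for Bag1, with a median of -0.11 beside 0.00 over all genes. Of the 8 ratios 7 were below 0. Fkbp4 was again lowest of the set, at -0.37 (-0.39 to -0.36), or 77.2% of control, from 56122 and 52926 reads. Hsp90aa1 was at -0.21 (-0.22 to -0.20), Ptges3 at -0.16 (-0.18 to -0.14), Hsp90ab1 at -0.12 and Nr3c1 at -0.10 (-0.18 to -0.03). The 2 knockdown pairs share no library, but each library is pooled RNA. Both pairs used the same siRNA reagents and scaling factors fitted over all 4 libraries. The likeness of the Fkbp4 and Hsp90aa1 values between the pairs is therefore not a replication of the knockdown.

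Fkbp4 is set beside genes of its own pathway within a library as a description only. It had the lowest knockdown ratio of the genes of the set that were tested, in both pairs. Its ratio to any of the others therefore had to be lower, which is no further support. The ratio of its cRPKM to that of Stip1, whose mappable length is 2124 nt beside 2168 nt for Fkbp4, was 1.32 (Veh) and 1.28 (Dex) under siControl and 1.08 (Veh) and 1.04 (Dex) under siArglu1. The log2 change of this ratio with knockdown was -0.29 (-0.31 to -0.26) in Veh and -0.30 (-0.32 to -0.27) in Dex. The ratio of Ptges3 to Fkbp4 went from 0.988 and 1.04 in the siControl libraries to 1.27 and 1.20 in the siArglu1 libraries.

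**Figure D2:**
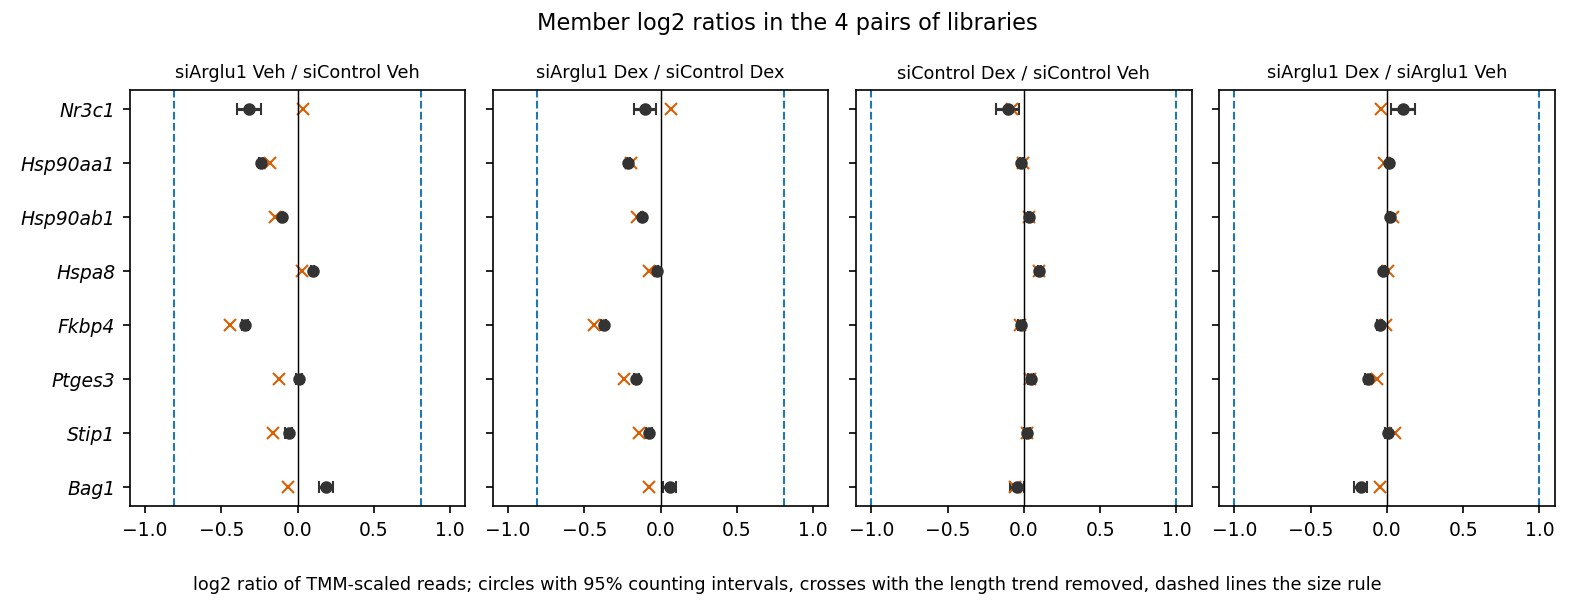
Log2 ratio of TMM-scaled reads of 8 genes in the 4 pairs of libraries, 1 panel per pair. Circles carry exact 95% counting intervals, crosses are the same ratios after a trend on transcript length was removed, and dashed lines mark the size rule of 0.81 (knockdown) or 1 (Dex). No circle reaches a dashed line, and Fkbp4 lies lowest in both knockdown panels.

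A model fitted with edgeR (quasi-likelihood) to all 4 libraries, with knockdown and Dex as additive terms, leaves 1 residual degree of freedom and takes the knockdown effect to be equal with and without Dex. Its error term is the departure of the 4 libraries from additivity, so its p values do not measure the spread between cultures. The model called 3 of the 8 genes for knockdown, all lower. Fkbp4 had a log2 coefficient of -0.36 with a Benjamini-Hochberg adjusted p of 0.000255, Nr3c1 -0.21 with 0.0335 and Hsp90aa1 -0.23 with 0.0346. The same model called 61.6% of all genes for knockdown, 3847 higher and 3857 lower, and 3 of 8 is a smaller share than that background. The other 5 genes had adjusted p values from 0.208 (Bag1) to 0.771 (Hspa8).

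The knockdown ratios of all genes followed transcript length, and this bears directly on the receptor. Over the genes tested, Spearman's rho of the log2 ratio with mappable length was -0.40 in Veh and -0.23 in Dex, given as a description across genes. Nr3c1, at 6368 nt, is the longest of the 8 and Bag1, at 1246 nt, the shortest. With a lowess trend on length removed, Nr3c1 went from -0.32 to 0.04 in Veh and from -0.10 to 0.07 in Dex, and Bag1 from 0.18 to -0.07 in Veh and from 0.06 to -0.07 in Dex. The direction for these 2 genes therefore depends on that choice. Fkbp4 went to -0.44 in both pairs, and Hsp90aa1 to -0.18 in Veh and -0.19 in Dex, so their direction did not. The median of the 8 genes went from -0.08 to -0.14 in Veh and from -0.11 to -0.15 in Dex. Whether the length trend comes from the cells or from the libraries was not tested.

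**Figure D3:**
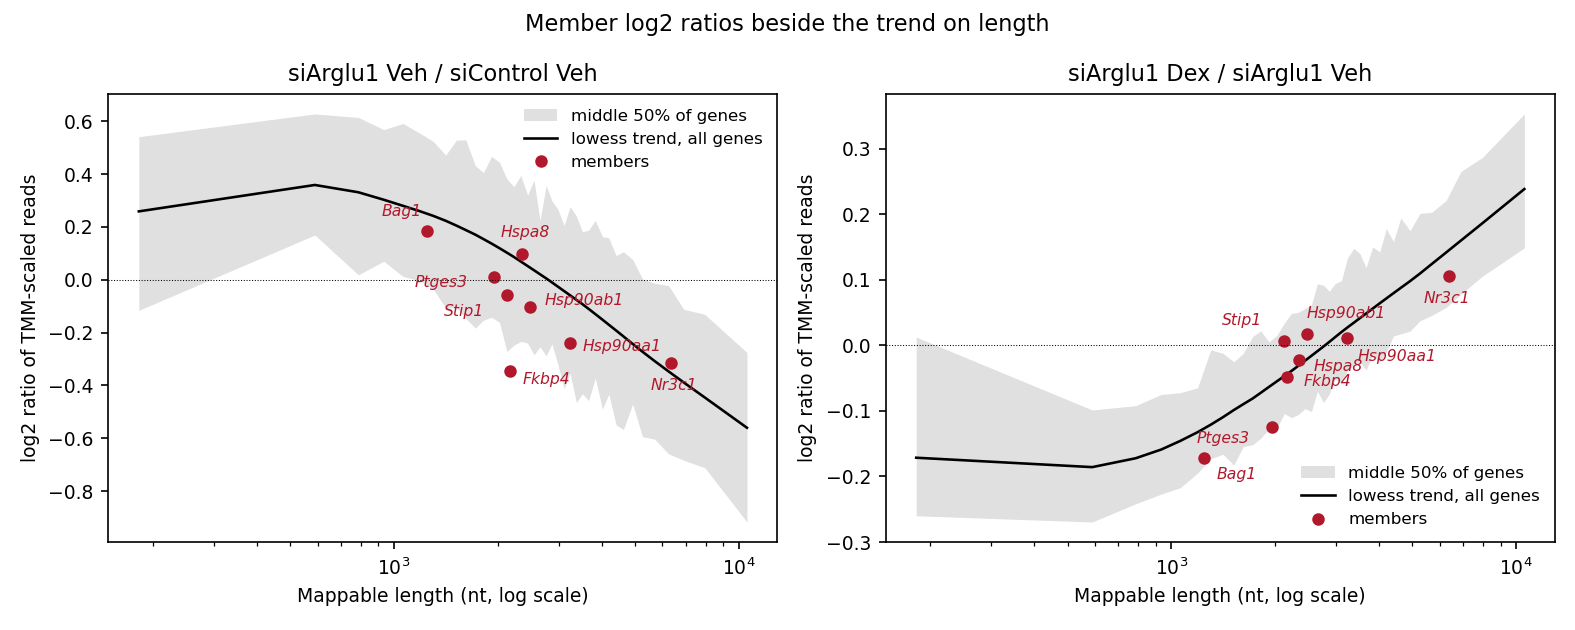
Log2 ratio of TMM-scaled reads against mappable length in nt on a log axis, for siArglu1 Veh over siControl Veh (left) and siArglu1 Dex over siArglu1 Veh (right). The line is the lowess trend over all genes tested, the grey band holds the middle 50% of genes in each of 40 length bins, and the points are the 8 genes. Nr3c1 lies near the line in both panels, while Fkbp4 lies well under it on the left.

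The next question was whether the hormone itself altered the genes of its receptor complex within 4 h. For Dex the size rule asked for a log2 ratio of 1, up or down. Between siControl Dex and siControl Veh, 0 of the 8 genes passed, as did 0.464% of all genes. The log2 ratios ran from -0.11 for Nr3c1 (-0.18 to -0.03) to 0.10 for Hspa8 (0.09 to 0.11), with a median of 0.00 beside 0.00 over all genes. The other 6 were between -0.05 for Bag1 and 0.05 for Ptges3.

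Between siArglu1 Dex and siArglu1 Veh, again 0 of the 8 passed, beside 0.392% of all genes. The ratios ran from -0.17 for Bag1 (-0.21 to -0.13) to 0.11 for Nr3c1 (0.03 to 0.18). Ptges3 was at -0.12 (-0.14 to -0.11), Fkbp4 at -0.05, Hspa8 at -0.02, and Hsp90aa1, Hsp90ab1 and Stip1 were each within 0.02 of 0. With the length trend removed Bag1 was at -0.05 and Ptges3 at -0.06. The additive model called 0 of the 8 genes for Dex, with adjusted p values from 0.999268 to 0.99937 and no unadjusted p under 0.05, where it called 1.04% of all genes, 124 higher and 6 lower.

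Nr3c1 was lower with Dex in siControl and higher with Dex in siArglu1. The difference between the Dex log2 ratios, siArglu1 minus siControl, was 0.21 (95% counting interval 0.10 to 0.32), and 32.4% of genes had a larger absolute difference. In the siArglu1 pair the log2 ratios of all genes rose with length, with a Spearman's rho of 0.54 across genes beside -0.16 in the siControl pair. With the length trend removed Nr3c1 stood at -0.08 in siControl and -0.04 in siArglu1, so the opposite directions are lost with that correction.

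Of the FKBP immunophilin genes that compete for the receptor complex, Fkbp5 was called for Dex by the additive model and Fkbp4 was not. Fkbp5 had 6024 reads and 10307 with siControl (Veh, then Dex) and 6234 and 13232 with siArglu1. With Dex its log2 ratio reached 0.68 (0.63 to 0.72) under control siRNA and 0.67 (0.63 to 0.72) after knockdown, short of the size rule of 1, with an additive-model adjusted p of 3.02e-12. The ratio of Fkbp4 to Fkbp5 on the cRPKM scale was 14.2 (Veh) and 8.77 (Dex) under siControl and 10.6 (Veh) and 6.44 (Dex) under siArglu1. Both Dex libraries were below the Veh library of the same siRNA, and both siArglu1 libraries were below the siControl library of the same treatment. The Dex log2 change of this ratio was -0.70 (-0.74 to -0.65) under control siRNA and -0.72 (-0.77 to -0.68) after knockdown, and the knockdown change was -0.42 (-0.47 to -0.36) in Veh and -0.44 (-0.49 to -0.40) in Dex. The first lay mostly in Fkbp5 and the second mostly in Fkbp4.

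Relative to the receptor, the chaperones were in large excess at the RNA level. The cRPKM of Hsp90ab1 was 380.5 and 419.8 times that of Nr3c1 under siControl (Veh and Dex) and 441 and 415 times under siArglu1. The corresponding ratio for Fkbp4 was 53.8 and 57.1 under siControl and 52.6 and 47.3 under siArglu1. The Fkbp4 ratio did not differ with knockdown in Veh beyond counting error (log2 change -0.03, -0.11 to 0.05) and was lower in Dex (-0.27, -0.34 to -0.20). These ratios set a long gene against shorter ones, and with the length trend removed the knockdown change of the Fkbp4 ratio was -0.48 in Veh and -0.51 in Dex. That of the Hsp90ab1 ratio turned from 0.21 to -0.19 in Veh and went from -0.02 to -0.22 in Dex.

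Among related chaperone and receptor genes outside the set, 35 passed the read minimum. Of these, 4 (11.4%) passed the size rule in the knockdown pair in Veh, beside 15.8% of all genes. In the knockdown pair in Dex 3 (8.57%) passed, beside 12.1% of all genes, and none passed in a Dex pair. Of 12 genes that deliver clients through HSP70 and HSP40, 10 passed the read minimum and 1 passed the size rule in both knockdown pairs. That gene was Bag2, an inhibitor of the CHIP ubiquitin ligase, with 2591 and 2854 reads in siControl Veh and Dex and 5857 and 7898 in siArglu1 Veh and Dex, and log2 ratios of 1.20 and 1.18. The stress-inducible Hspa1a and Hspa1b had 0 to 2 reads per library; these near-identical copies cannot be measured apart and are uncertain. The additive model called 2 of the 10 higher and 4 lower for knockdown, a share close to the 61.6% of all genes.

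Of 16 other HSP90 co-chaperone genes all passed the minimum, and none passed the size rule in any of the 4 pairs. The additive model called 5 of the 16 higher and 2 lower for knockdown, a smaller share than the 61.6% of all genes, and Fkbp5 alone for Dex, beside 1.04% of all genes. The largest knockdown log2 ratios were those of Ttc4 (0.56 and 0.53), Fkbp8 (0.54 and 0.55) and Tomm34 (0.54 and 0.45) on the higher side and of Chordc1 (-0.44 and -0.39) on the lower side, in Veh and Dex. Of the 2 other HSP90 paralogs, the mitochondrial Trap1 was at 0.52 in both pairs and the endoplasmic reticulum Hsp90b1 at -0.05 and -0.21. The heat shock factor genes lay on opposite sides, Hsf1 at 0.36 and 0.33 and Hsf2 at -0.36 and -0.39.

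Of 8 other steroid receptor and ligand-handling genes, 5 passed the read minimum. Esr1, the estrogen receptor alpha gene, had 305 and 319 reads in siControl Veh and Dex and 155 and 200 in siArglu1 Veh and Dex, with knockdown log2 ratios of -0.95 and -0.96. Its mappable length is 6297 nt, and with the length trend removed it was at -0.60 and -0.79, short of the rule in both pairs. Abcb1a, which encodes a drug transporter that exports glucocorticoids, had 250 and 239 reads under siControl (Veh and Dex) and 506 and 620 under siArglu1, with log2 ratios of 1.04 and 1.08. Abcb1b, a related gene of the same list, had more reads, 752 and 951 under siControl and 876 and 1264 under siArglu1. Its knockdown log2 ratios were 0.24 in Veh and 0.12 in Dex, short of the rule. Esr2 was past the rule in Veh at 0.84 and short of it in Dex at 0.80, on 25 to 54 reads per library, and with the length trend removed it was past it in both, at 0.90 and 0.82. The Dex pairs held no gene of these lists past 1, and the largest ratio was that of Hsd11b2 in siArglu1, 0.82 (0.22 to 1.48), beside 0.10 in siControl.

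**Figure D4:**
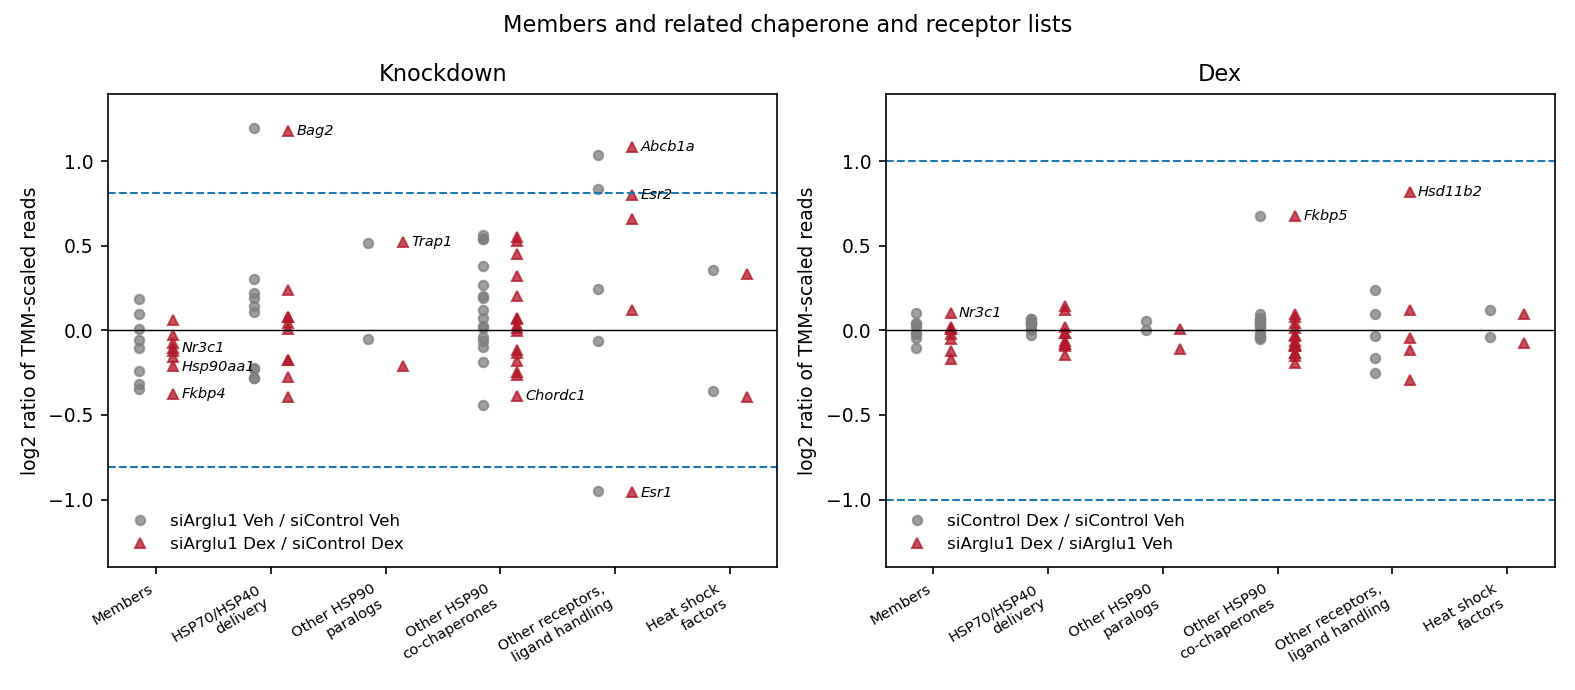
Log2 ratios of TMM-scaled reads of the 8 genes and of 5 related lists, for knockdown (left) and Dex (right). Grey circles are the pairs siArglu1 Veh over siControl Veh and siControl Dex over siControl Veh, red triangles the pairs siArglu1 Dex over siControl Dex and siArglu1 Dex over siArglu1 Veh, and dashed lines the size rule. The members sit between -0.37 and 0.18 on the left, inside the dashed lines. Bag2, Abcb1a and Esr1 cross these lines in both knockdown pairs, and Esr2 crosses in Veh only. With the length trend removed Esr1 would cross neither line, and Esr2 would cross in both pairs.

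The profile of Nr3c1 over the 4 libraries was most like those of Zfp780b, Klhl11 and Mphosph9, with root mean square distances of 0.013 to 0.014 between centred log2 CPM values, and 393 genes lay within 0.05. That of Hsp90ab1 was most like those of Trmt44, C330027C09Rik and Farsa, at 0.0051 to 0.0059, with 722 genes within 0.05. With 4 values per profile, such likeness is common. Zfp780b had only 48 to 67 reads per library, so its place rests on few reads.

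Splicing was described as PSI, the share in percent of a gene's transcripts carrying a given exon or splice site. The files listed 48 alternative events in 9 of the 10 genes, and none for Hsd11b1. Of these, 30 had a PSI in all 4 libraries and were scored LOW or higher for coverage in no fewer than 3. A difference of 15 PSI or more was found in 0 of the 30 in each of the 4 pairs, beside 1.96% and 1.52% of 57183 events in the knockdown pairs in Veh and Dex, and 0.717% and 0.948% in the Dex pairs in siControl and siArglu1. In the 30 events, 36 of 38 sites lay at 0 to 5 or 95 to 100 PSI in every library, or 94.7%, beside 72.0% of sites in all events.

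The remaining sites were in Nr3c1 and Ptges3. Nr3c1, on chromosome 18, has an alternative donor that lengthens an exon by 3 nt, so that 1 amino acid is added if the reading frame holds. Its PSI was 9.68 (3 of 31 junction reads) and 4.55 (1 of 22) under siControl, Veh and Dex, and 0.00 (0 of 3) and 3.85 (1 of 26) under siArglu1. Exact 95% intervals ran from 2.04 to 25.8, 0.12 to 22.8, 0.00 to 70.8 and 0.10 to 19.6 in that order, so they overlap in all pairs. The largest PSI difference of the whole set, 9.68 between siArglu1 Veh and siControl Veh, thus rests on 3 junction reads in 1 library. A second Nr3c1 donor, longer by 52 nt, was used at 97.3 to 100.0 PSI on 23 to 56 junction reads.

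Ptges3 holds a 99-nt cassette exon at chr10:127507190-127507288 (mm9). Its PSI was 23.3 and 16.5 with siControl (Veh, then Dex) and 19.2 and 11.6 with siArglu1, with a score of OK in each. Both Dex libraries were below the Veh library of the same siRNA, by 6.85 and 7.60 PSI, and both siArglu1 libraries were below the siControl library of the same treatment, by 4.10 and 4.85 PSI, all under 15. The cassette table gives no plain read count for an exon in a complex event, so no interval is given.

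The deeply covered sites differed by less than 2 PSI between libraries. In Fkbp4 the acceptor that lengthens an exon by 15 nt, at chr6:128383780-128383811 (mm9), was used at 97.5 and 97.2 PSI under siControl (Veh and Dex) and at 96.0 and 96.9 PSI under siArglu1, on 1529 to 2227 junction reads. In Bag1 the longest of 3 donors, at chr4:40888530-40888671 (mm9), was used at 1.16 and 2.50 PSI under siControl and at 0.94 and 0.57 PSI under siArglu1, on 599 to 884 junction reads. The exact 95% intervals of siControl Dex (1.41 to 4.10) and siArglu1 Dex (0.18 to 1.31) did not overlap, a difference of 1.93 PSI. The 6 compared events of Hsp90ab1 moved by at most 0.05 PSI and the 6 of Stip1 by at most 0.41.

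**Figure D5:**
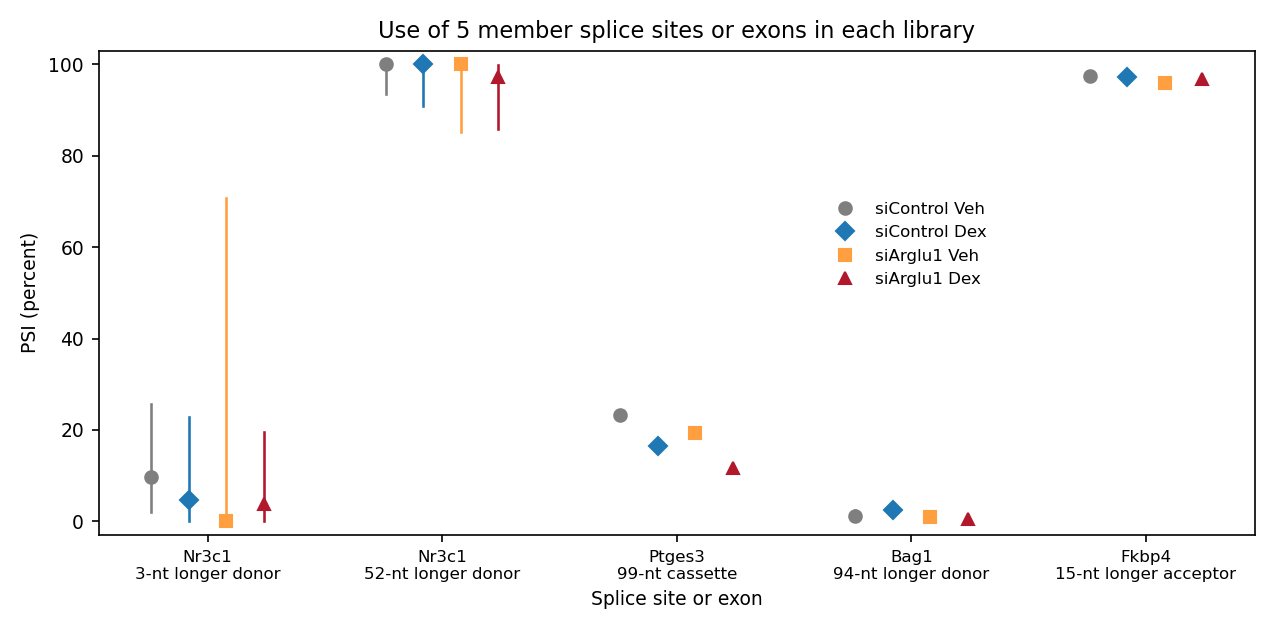
PSI, in percent, of 5 splice sites or exons of Nr3c1, Ptges3, Bag1 and Fkbp4 in each library, with exact 95% counting intervals where junction reads are given. The 4 points of each site lie within 12 PSI of each other, and the interval for the 3-nt Nr3c1 donor in siArglu1 Veh reaches 70.8.

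Depth in the gene table did not carry over to the junctions for every gene. The 5 events of Hspa8 and the 4 of Hsp90aa1 had coverage scores no higher than VLOW, although these genes had 242709 to 334882 and 130571 to 174877 reads per library, and none could be compared. Fkbp4, with 41179 to 56122 reads, had all 6 events covered at the highest score. Hspa8 and Hsp90aa1 are also the genes with the largest share of sequence in pseudogenes, given above, and the part of that in the low junction scores was not tested. The 3 events of Nr3c2 had no usable coverage.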

How the data were processed

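Poly(A) RNA of N2a cells was sequenced, with 1 library per group from RNA pooled over 3 cultures. Per the labels the authors used Bowtie and build mm9; no versions are given in the sources used here. Raw read counts per gene and cRPKM, an RPKM value corrected for mappable length, were deposited for 22667 genes. The authors also deposited PSI as a percent for cassette exons and alternative splice sites, each with a coverage score (a text grade from N to SOK). In the count table a missing read value was taken as 0. The 2 further columns of the authors hold Dex over Veh cRPKM ratios and were not used.

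Reads were scaled by TMM over 12497 genes with at least 75 reads summed over 4 libraries, and log2 CPM was taken with a prior count of 1 (edgeR 4.0.16 in R 4.3.3). Exact 95% Clopper-Pearson intervals of read ratios and PSI cover counting error only; intervals for a ratio between genes or a difference of ratios use the normal approximation on the log scale. The size rule was a log2 ratio of 0.81 (knockdown) or 1 (Dex), and 15 PSI. The additive model was edgeR's quasi-likelihood test with Benjamini-Hochberg adjustment over all genes tested. Alternatives were DESeq2 size factors (DESeq2 1.42.0), library totals, log2(cRPKM + 0.1), a prior count of 5, no read minimum, a lowess length trend removed (span 0.3, 3 iterations, statsmodels 0.14.6), a threshold of 0.5, and 10 or 25 PSI or other coverage minimums. Mappable length came from reads and cRPKM. The methods were tested on simulated data.

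The genes and related lists were chosen with earlier results of these data known. Named in the text were all 10 genes, Arglu1, genes of the related lists past the size rule or among the 3 largest differences of a pair, further list genes given as examples after their values were seen, the 3 most similar profiles to Nr3c1 and to Hsp90ab1, and the 3 member events with the largest differences, with 2 more (Fkbp4 and Bag1) added as deeply covered examples.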

Additional observations from a re-analysis of the deposited data

Results flagged for a closer look

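With 1 library per group no gap to other samples of a group could be examined. Log2 ratios of the same contrast that pointed in opposite directions, each with a 95% counting interval off 0, were looked for among the 8 genes, and the difference between them was not tested against replicates. For the Dex ratio, siArglu1 minus siControl, the difference was 0.212 for Nr3c1, 0.0264 for Hsp90aa1, -0.125 for Hspa8 and -0.17 for Ptges3. For the knockdown ratio, Dex minus Veh, it was -0.125 for Hspa8, the same number by construction, since both are formed from the same 4 libraries. In all genes tested, 32.4%, 89.7%, 55.4% and 42.6% differed by more than Nr3c1, Hsp90aa1, Hspa8 and Ptges3, respectively. With the length trend removed the opposite Dex directions were lost for Nr3c1 (-0.08 in siControl and -0.04 in siArglu1), Hsp90aa1 (-0.01 and -0.02) and Hspa8 (0.10 and 0.01) and were kept for Ptges3 (0.04 and -0.06), as were the opposite knockdown directions of Hspa8 (0.03 in Veh and -0.07 in Dex). Under library totals or log2(cRPKM + 0.1) the Hspa8 Dex ratio in siArglu1 went from -0.02 to 0.01, so its opposite Dex directions were lost there too. Library totals shifted the median gene by 0.03 in that pair, beside a main ratio of 0.01 for Hsp90aa1.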

How the results depend on the processing

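The count of 0 changed genes in each pair held under DESeq2 size factors, library totals, log2(cRPKM + 0.1), a prior count of 5, removal of the length trend and a threshold of 0.5. With no minimum on reads it was 1 in each pair, from genes with 0 to 8 reads per library: Nr3c2 in 3 pairs and Hsd11b1 for knockdown in Dex. The additive model gave 3 for knockdown (Nr3c1, Hsp90aa1 and Fkbp4) and 0 for Dex; it pools both treatments and uses a test in place of a size. The count of 0 changed events held at 10 and 25 PSI and with a score of OK in all 4 libraries (28 events). With no coverage minimum it was 4 for knockdown in Veh, 3 for knockdown in Dex, 4 for Dex in siControl and 3 for Dex in siArglu1, in events of Hsp90aa1, Hsp90ab1, Hspa8 and Ptges3 that score N to LOW. Of 192 recomputed log2 ratios 12 changed sign, 8 of them with the length trend removed (Nr3c1 in 3 pairs, Bag1 in 2, and Hsp90aa1, Hspa8 and Ptges3 in 1 each) and 2 each with library totals and cRPKM (Hspa8 and Ptges3, all within 0.03 of 0). No paired analysis was possible because each group has 1 library and the labels carry no replicate numbers. Pooled RNA hides the spread between cultures, and RNA levels do not give protein.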
